A study of Arabidopsis thaliana with 30 samples.

Results

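Arabidopsis genes for the making and the use of seed oil, FaTA, FATB, SDP1 and AIM1, were followed through seed development. They were chosen as the probe sets that the array annotation gives to the acyl-ACP thioesterases FaTA (AT3G25110) and FATB (AT1G08510), the triacylglycerol lipase gene SDP1 (AT5G04040) and the beta-oxidation gene AIM1 (AT4G29010). On the ATH1 array each of the 4 genes had 1 probe set, so the members were 4 of 22810 probe sets and 4 of the 13286 genes that a probe set named singly, and 4 of 4 passed the filter on low signal. On the older AtGenome1 array 4 of 8297 probe sets were annotated to 3 of the genes (of 3592 named singly), and SDP1 was not analysed there.

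The series compared seed of lec1 mutants with wild type, both in ecotype Ws-0. The LEC1 gene (LEAFY COTYLEDON1) codes for an NF-Y transcription factor subunit of the embryo. On ATH1, lec1-1 seed was sampled 24 hours after fertilization and in globular and cotyledon-stage seed, then when mature green and when past it (post-mature green). Wild type was sampled as seed 24 hours after fertilization, as cotyledon, mature green and post-mature green seed, and as seedlings 3 days after imbibition. The labels give 2 biological replicates, 1 array each, for all 10 groups. On AtGenome1, lec1 was sampled at 24 hours and mid-maturation, wild type at those stages and at late maturation, and each was 1 sample on 2 technical replicate arrays. Continuous light is stated for all ATH1 groups but the globular one, the samples were whole seeds or seedlings, and the mutant of the AtGenome1 samples is named only lec1.

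Plant fatty acids are built in the plastid on an acyl carrier protein (ACP), and a thioesterase ends the chain by releasing it. FaTA acts mostly on oleoyl-ACP and FATB mostly on saturated acyl-ACPs. In seeds the released fatty acids are exported and assembled into triacylglycerol, which is stored in oil bodies. SDP1 (SUGAR-DEPENDENT1) starts the use of that oil by cutting fatty acids from triacylglycerol, and the multifunctional protein AIM1 (ABNORMAL INFLORESCENCE MERISTEM1) catalyses steps of their oxidation in peroxisomes. Oil is mainly laid down during maturation, and mainly consumed after germination.

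Signals are linear values that the authors made with Affymetrix Microarray Suite 5.0, with a scaling target of 500 per array; for the globular arrays the labels state neither. The median signal of an array was 176.8 to 217.4, and the 2 arrays of any group correlated with a Pearson's r of 0.935 to 0.982 on the log2 scale. The lower end of that range came from post-mature green wild type, followed by mature green wild type with r = 0.945. The members' signals reached from 179.3 to 3195.2, and 0 of their values lay under 100. LEC1 itself was not analysed here, so its own level gave no check of the genotype labels. Differences are on the log2(signal + 50) scale, each with the moderated standard error of limma from 1 model of all 20 arrays, and adjusted p is Benjamini-Hochberg over the 18459 probe sets tested. A difference passed when its adjusted p was under 0.05. Precision is limited by having 2 arrays a group. The labels do not say whether replicates came from separate plants, so p-values measure only the spread between these samples.

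FaTA was the member that varied most. In lec1-1 seed its signal was 283.9 and 327.4 at 24 hours, 337.2 and 350.7 at the globular stage, 747.8 and 657.1 at the cotyledon stage, 219.6 and 184.5 at the mature green stage, and 179.3 and 194.0 at the post-mature green stage. The mutant peaked in cotyledon-stage seed, and its last 2 stages overlapped each other. In wild-type seed the signal was 391.9 and 412.8 at 24 hours, 897.6 and 1288.3 at the cotyledon stage, 1351.9 and 1914.3 at the mature green stage, 519.5 and 435.9 at the post-mature green stage, and 192.5 and 280.1 in seedlings. Wild type peaked 1 sampled stage later than the mutant, in mature green seed, and no neighbouring stages overlapped.

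**Figure D1:**
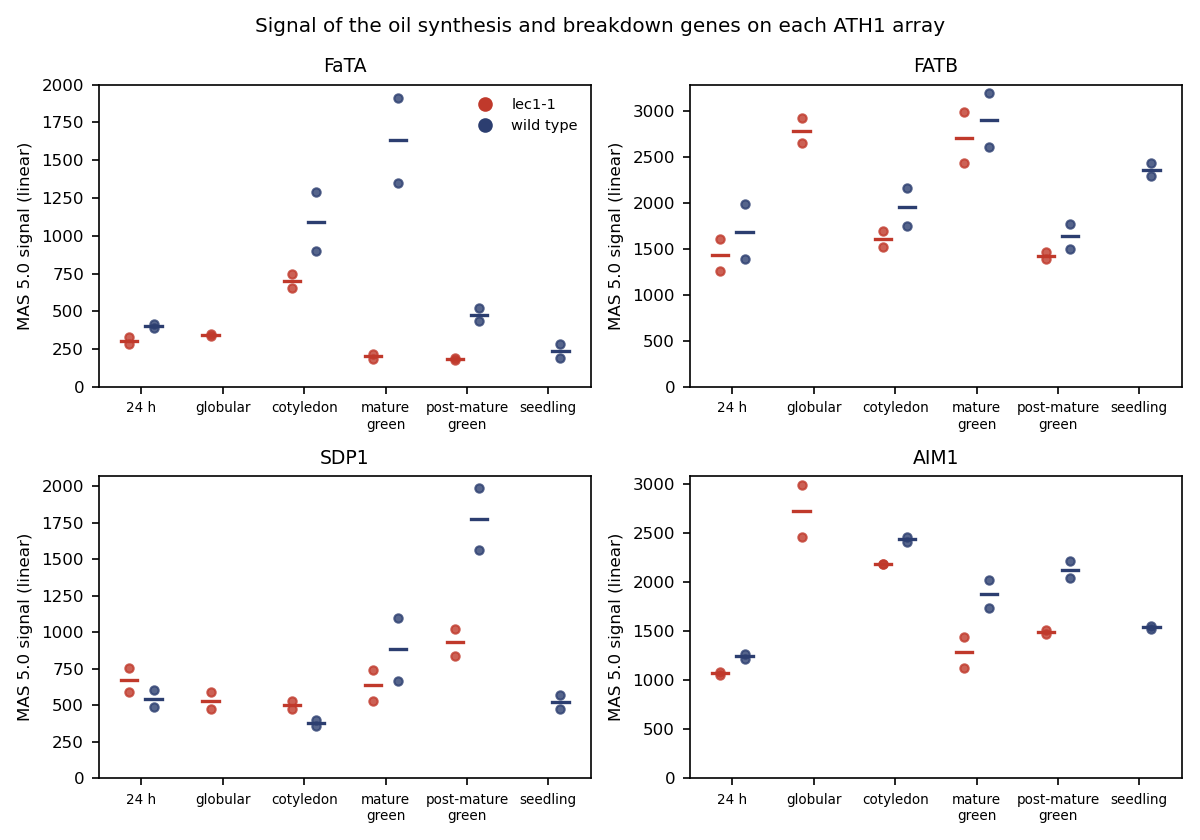
Signal of FaTA, FATB, SDP1 and AIM1 on the ATH1 arrays (linear Microarray Suite 5.0 signal, each y axis from 0) against sample stage; points are single arrays, bars the mean of 2 arrays, red lec1-1 and blue wild type, with the globular stage sampled only in lec1-1 and seedlings only in wild type. FaTA reached a mean of 202 in mature green lec1-1 seed, against 1633 in wild type, whereas the FATB arrays of both genotypes overlapped at that stage.

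The mature green stage held the largest genotype difference among the 4 genes. There FaTA averaged 202 ± 25 in lec1-1 and 1633 ± 398 in wild type (SD, n = 2 each), an 8.08-fold lower mean signal. The log2 difference was -2.72 ± 0.22 (limma, adjusted p = 3.99e-08), and the 95% confidence interval was -3.19 to -2.26. In 0.46% of the probe sets tested the difference was more negative. At the post-mature green stage FaTA averaged 187 ± 10 in lec1-1 and 478 ± 59 in wild type, and the difference was -1.15 ± 0.22 (limma, adjusted p = 0.000353). With 1 array left out the 2 late differences ranged from -2.97 to -2.48 and from -1.27 to -1.04. Both also passed in every other alternative fit, that with lot as a covariate included. In mature green seed lot goes with genotype, so that fit takes its lot effect from other groups. It cannot tell lot and genotype apart at that stage.

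Before maturation the FaTA difference was smaller and did not pass. At the cotyledon stage the mean was 702 in lec1-1 and 1093 in wild type, with a difference of -0.58 ± 0.22 (unadjusted p = 0.017, adjusted p = 0.399 by limma). At 24 hours it was 306 in lec1-1 and 402 in wild type, with a difference of -0.35 ± 0.22. At both stages each lec1-1 array lay below each wild-type array, an order whose share over all probe sets was not counted. The change of the genotype difference between stages was tested directly: it was -2.14 ± 0.32 for mature green minus cotyledon (limma, adjusted p = 0.000112) and 1.57 ± 0.32 for post-mature green minus mature green (adjusted p = 0.00203). The FaTA difference therefore grew into the mature green stage and narrowed after it.

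The stage steps show where that narrowing lay. Between mature green and post-mature green seed the FaTA step was -0.09 ± 0.22 in lec1-1 (limma, adjusted p = 0.908), while in wild type FaTA fell by 1.66 ± 0.22 on the log2 scale (adjusted p = 1.08e-05). The fall in lec1-1 came 1 step before, between the cotyledon and mature green stages, at -1.58 ± 0.22 (adjusted p = 1.56e-05), where the wild-type step was 0.56 ± 0.22 (adjusted p = 0.0624). The rise into the cotyledon stage passed in both genotypes, with 0.93 ± 0.22 over globular seed in lec1-1 (adjusted p = 0.00723) and 1.32 ± 0.22 over 24-hour seed in wild type (adjusted p = 0.000166). The lec1-1 step did not pass without lec1-1 cotyledon replicate 1 (0.84, adjusted p = 0.0793) or without lec1-1 globular replicate 1 (0.91, adjusted p = 0.0553). Wild-type seedlings had less FaTA signal than post-mature green seed, by -0.89 ± 0.22 (adjusted p = 0.00187).

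FATB, the thioesterase gene for saturated chains, was highest in mature green seed among the stages sampled in both genotypes. In lec1-1 its signal was 1259.2 and 1613.4 at 24 hours, 2656.7 and 2922.4 at the globular stage, 1697.7 and 1518.3 at the cotyledon stage, 2438.0 and 2989.3 at the mature green stage and 1462.8 and 1391.1 at the post-mature green stage. In wild type it was 1387.1 and 1991.4 at 24 hours, 1756.1 and 2169.2 at the cotyledon stage, 2608.8 and 3195.2 at the mature green stage, 1778.3 and 1504.4 at the post-mature green stage, and 2300.9 and 2431.9 in seedlings. Mature green seed stood above both its neighbouring stages in each genotype, and the lec1-1 globular stage reached a like level.

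No genotype difference of FATB passed. The differences were -0.21 at 24 hours, -0.27 at the cotyledon stage, -0.10 at the mature green stage and -0.19 at the post-mature green stage, each with a standard error of 0.19. At the mature green stage the 95% confidence interval of -0.49 to 0.30 does not reach the FaTA difference of -2.72. Its group means spanned 0.99 on the log2 scale, and 12.5% of the probe sets tested had a smaller span, against 77.5% for FaTA.

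Most stage steps of FATB did pass. In lec1-1 the 4 steps alternated, with 0.94 ± 0.19 into the globular stage, -0.78 ± 0.19 into the cotyledon stage, 0.73 ± 0.19 into the mature green stage and -0.90 ± 0.19 into the post-mature green stage (limma, adjusted p = 0.000658, 0.0073, 0.0043 and 0.00844). Wild type showed 0.55 ± 0.19 for mature green minus cotyledon (adjusted p = 0.0282), -0.80 ± 0.19 for post-mature green minus mature green (adjusted p = 0.00232) and 0.52 ± 0.19 for seedling minus post-mature green (adjusted p = 0.0218). Several of these rest on single arrays. In lec1-1 the step into the cotyledon stage was -0.70 without cotyledon replicate 2 (adjusted p = 0.0786) and -0.71 without globular replicate 2 (0.0579). The step into the mature green stage was 0.59 without mature green replicate 2 (0.0553). The step into the post-mature green stage was -0.75 without mature green replicate 2 (0.0938), -0.93 without post-mature green replicate 1 (0.0654) and -0.86 without post-mature green replicate 2 (0.0633). The wild-type step into the mature green stage was 0.40 without cotyledon replicate 1 (adjusted p = 0.226) and 0.41 without mature green replicate 2 (adjusted p = 0.177), and did not pass in a fit of only its own groups (0.55, adjusted p = 0.0834) or without the intensity trend (0.55, adjusted p = 0.0633). The wild-type seedling step was 0.40 without post-mature green replicate 2 (adjusted p = 0.139), 0.56 without seedling replicate 1 (0.0578), 0.48 without seedling replicate 2 (0.1) and 0.49 with lot as a covariate (0.0564).

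SDP1, the lipase gene, climbed late in wild-type seed. In lec1-1 its signal was 755.0 and 592.9 at 24 hours, 471.8 and 593.8 at the globular stage, 528.1 and 471.5 at the cotyledon stage, 743.8 and 530.3 at the mature green stage, and 1024.9 and 839.4 at the post-mature green stage. In wild type it was 604.8 and 486.2 at 24 hours, 358.3 and 399.8 at the cotyledon stage, 1099.3 and 666.0 at the mature green stage, 1988.6 and 1564.2 at the post-mature green stage, and 572.5 and 473.7 in seedlings. Post-mature green seed was the highest group in either genotype. The 2 mature green wild-type arrays were far apart, and one of them overlapped the lec1-1 arrays.

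Post-mature green SDP1 signal averaged 932 ± 131 in lec1-1 and 1776 ± 300 in wild type (SD, n = 2 each), a 1.91-fold lower mean signal. The log2 difference of -0.89 ± 0.23 passed (limma, adjusted p = 0.00433). Without wild-type post-mature green replicate 1, which is also the fit within arrays that state no lot, it was -0.72 (adjusted p = 0.0503). At the mature green stage the difference was -0.42 ± 0.23 (adjusted p = 0.197), and it moved with the wild-type array left out: it was -0.76 without replicate 2 (adjusted p = 0.033) and -0.08 without replicate 1 (adjusted p = 0.867). With lot as a covariate it was -0.09 (adjusted p = 0.887). In 24-hour and cotyledon-stage seed the SDP1 differences were above 0, at 0.28 and 0.36, each ± 0.23, and neither passed. The change of the difference from the cotyledon to the mature green stage was -0.78 ± 0.33 (adjusted p = 0.114). That change was -1.12 without wild-type mature green replicate 2 (adjusted p = 0.0219) and -0.43 without replicate 1 (adjusted p = 0.422).

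In lec1-1, by limma, 0 of 4 SDP1 steps passed and 1 of 4 had an unadjusted p under 0.05: the step into the post-mature green stage, at 0.53 ± 0.23 (unadjusted p = 0.036, adjusted p = 0.279). Wild-type SDP1 rose by 1.08 ± 0.23 into the mature green stage (limma, adjusted p = 0.00128) and by 1.00 ± 0.23 into the post-mature green stage (adjusted p = 0.00237), and seedlings were lower than post-mature green seed by -1.67 ± 0.23 (adjusted p = 4.67e-06). The change of the genotype difference from mature green to post-mature green seed was -0.47 ± 0.33 and did not pass (limma, adjusted p = 0.366). The wild-type step into the post-mature green stage was 0.66 without mature green replicate 2 (adjusted p = 0.0625).

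AIM1 had its highest signal in globular lec1-1 seed, and in wild type at the cotyledon stage. In lec1-1 the signal was 1086.9 and 1056.0 at 24 hours, 2454.1 and 2984.2 at the globular stage, 2182.2 and 2183.0 at the cotyledon stage, 1128.6 and 1440.5 at the mature green stage, and 1508.7 and 1474.4 at the post-mature green stage. In wild type it was 1214.2 and 1270.3 at 24 hours, 2406.1 and 2462.0 at the cotyledon stage, 1734.5 and 2018.0 at the mature green stage, 2213.5 and 2038.7 at the post-mature green stage, and 1551.1 and 1522.8 in seedlings. Every lec1-1 array was below every wild-type array of its stage, at all 4 stages sampled in both. The share of all probe sets with such an order was not counted, and the difference passed only at the mature green and post-mature green stages.

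The AIM1 difference was -0.54 ± 0.15 at the mature green stage (limma, adjusted p = 0.0105), with means of 1285 ± 221 in lec1-1 and 1876 ± 200 in wild type. It was -0.50 ± 0.15 at the post-mature green stage (adjusted p = 0.0109), with means of 1492 ± 24 in lec1-1 and 2126 ± 124 in wild type (SD, n = 2 each). At 24 hours and the cotyledon stage it was -0.20 and -0.15, each ± 0.15, and did not pass. The change of the AIM1 difference from the cotyledon to the mature green stage was -0.38 ± 0.21 and did not pass either (adjusted p = 0.235). The mature green call was lost in a fit of only its own groups (-0.54, adjusted p = 0.154), with lot as a covariate (-0.46, adjusted p = 0.165), and when wild-type replicate 2 (-0.43, adjusted p = 0.0823) or lec1-1 replicate 1 (-0.37, adjusted p = 0.135) was left out. The post-mature green call was lost when wild-type replicate 1 (-0.44, adjusted p = 0.0651) or lec1-1 replicate 2 (-0.48, adjusted p = 0.0516) was left out. The AIM1 steps that passed were 1.30 ± 0.15 into the lec1-1 globular stage (adjusted p = 1.76e-06), -0.75 ± 0.15 into the lec1-1 mature green stage (adjusted p = 0.00053), 0.94 ± 0.15 into the wild-type cotyledon stage (adjusted p = 7.77e-05) and -0.45 ± 0.15 into the wild-type seedling (adjusted p = 0.013). The seedling step was -0.40 without wild-type post-mature green replicate 1 (adjusted p = 0.0712) and -0.44 without seedling replicate 2 (adjusted p = 0.0611).

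**Figure D2:**
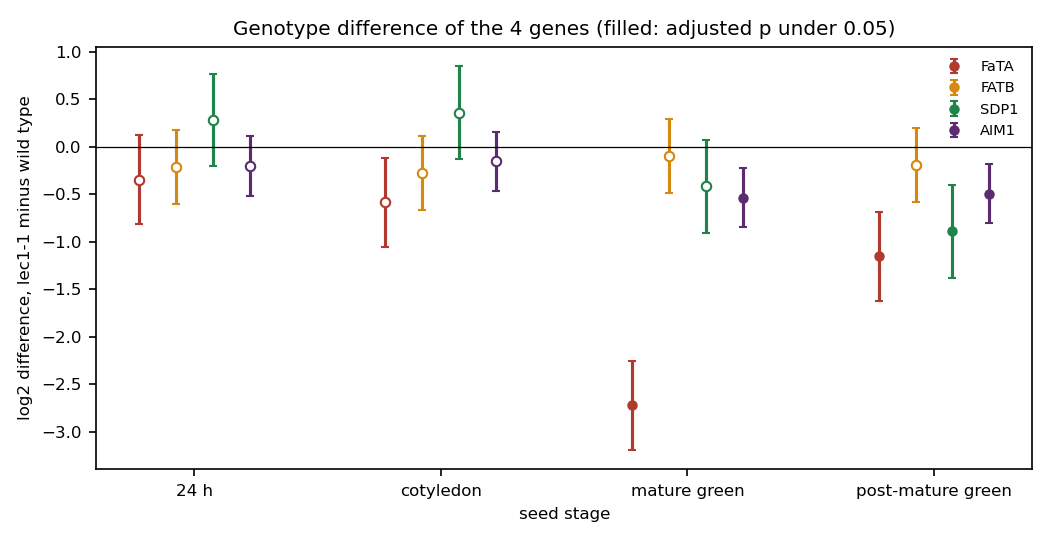
Log2 difference of lec1-1 minus wild type (y axis) at 4 seed stages (x axis) for the 4 genes on ATH1; points are limma estimates from 2 arrays a group, bars 95% confidence intervals, filled points an adjusted p under 0.05 and open points one above it. FaTA lies at -2.72 in mature green seed, while the intervals of FATB include 0 at all 4 stages.

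Set against all probe sets, the members' counts were as follows. By limma 0 of 4 passed at 24 hours and 0 of 4 at the cotyledon stage, where 0.119% and 0.71% of all probe sets tested passed, and at an unadjusted p under 0.05 the counts were 0 and 1. At the mature green stage 2 of 4 passed, FaTA and AIM1, and both were lower in lec1-1, where 13% of all probe sets tested were called lower and 28.7% were called in either direction. At the post-mature green stage 3 of 4 passed, FaTA, SDP1 and AIM1, all lower, where 20.5% were called lower and 44.1% in either direction. The change of the genotype difference passed for 0 of 4 members between 24 hours and cotyledon (0 also at an unadjusted p under 0.05 by limma), where 0.314% of all probe sets passed. It passed for 1 of 4 between cotyledon and mature green and for 1 of 4 between mature green and post-mature green, in both cases FaTA, against 18.5% and 15.9% of all probe sets. In lec1-1, 2, 2, 3 and 1 of 4 members passed in the 4 steps from 24 hours onward, in stage order, against 29.9%, 15.2%, 36.6% and 3.41% of all probe sets. In wild type, 2, 2, 3 and 4 of 4 members passed in the steps to the cotyledon, mature green, post-mature green and seedling samples, where 24.4%, 32.6%, 35.4% and 60.6% of all probe sets passed. The median difference of the 4 members was -0.48 at the mature green and -0.69 at the post-mature green stage, against 0.02 and -0.02 over all probe sets.

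A lot batch, of what the labels do not say, is stated for all wild-type and no lec1-1 arrays of cotyledon-stage and mature green seed, so for these it cannot be told apart from genotype. In RNA from whole seeds, fewer cells of a type and less RNA per cell cannot be told apart either. Of the seed coat markers 2 of 6 were measured (BAN and DELTA-VPE), and their summed signal in mature green seed was 6047.6 to 8529.3 in lec1-1, against 7823.7 to 12555.7 in wild type. In post-mature green seed it was 292.9 to 366.4 in lec1-1, against 537.6 to 602.8 in wild type. The silique wall marker ALC, 1 of 5 on its list, read 347.1 to 471.1 in mature green lec1-1 seed, against 179.3 to 190.6 in wild type, and 392.9 to 402.6 in post-mature green lec1-1 seed, against 133.6 to 146.5 in wild type. ALC passed at both stages, and DELTA-VPE passed lower in post-mature green lec1-1 seed (-0.63, adjusted p = 0.0417). That DELTA-VPE call was lost in each fit with 1 of its 4 arrays left out (adjusted p 0.0684 to 0.162), with an offset of 1 (0.325) and without the intensity trend (0.0814). The 2 of 8 endosperm markers measured (IKU2 and AGL62) summed to at most 191.9 in any seed group. The part of these tissues in the members' differences was not tested.

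Late lec1-1 seed was also set against wild-type seedlings, in which stored oil is consumed. In mature green lec1-1 seed, by limma, 0 of 4 members differed from seedlings, also at an unadjusted p under 0.05, where 45.5% of all probe sets passed. FaTA averaged 202 in that seed and 236 in seedlings, a difference of -0.17 ± 0.22 with a 95% confidence interval of -0.64 to 0.30. In post-mature green lec1-1 seed 2 of 4 differed, against 45.9% of all probe sets. FATB was lower than in seedlings by -0.71 ± 0.19 (adjusted p = 0.0041), and SDP1 was higher by 0.78 ± 0.23 (adjusted p = 0.0104). The SDP1 call was lost without seedling replicate 2 (0.65, adjusted p = 0.0921) and without lec1-1 replicate 1 (0.64, adjusted p = 0.0938). In these 2 comparisons the median of all probe sets was itself above 0, at 0.18 and 0.16, and with quantile normalization it was 0.06 and 0.05.

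Other genes of oil synthesis were read from pathway lists. Of 28 genes listed for plastid fatty acid synthesis, 8 had a probe set that the annotation names singly, and it gives these only as loci. In all lists, measured means having such a probe set. The annotation used left 8730 ATH1 probe sets without a name, so other listed genes may be on the array. The list covers chain building and also chain release and export, with a thioesterase locus of the FaTA type among its entries, so its counts do not stand for the steps before the thioesterases alone. In mature green seed 6 of the 8 were lower in lec1-1 and 1 was higher, with a median difference of -1.77. Of all probe sets tested 13% were called lower at that stage and 28.7% in either direction. The higher call, AT3G57280 (0.50, adjusted p = 0.0276), was lost in each fit with 1 of its 4 arrays left out (adjusted p 0.0618 to 0.113), without the intensity trend (0.0538) and with lot as a covariate (0.24, adjusted p = 0.512). AT3G02630 read 824.3 and 990.6 in lec1-1, against 4470.5 and 4895.7 in wild type (-2.31 ± 0.16, adjusted p = 4.19e-09). AT5G16240 read 220.7 and 255.1 in lec1-1, against 1505.6 and 1979.7 in wild type (-2.63 ± 0.29, adjusted p = 1.52e-06), and AT1G24360 read 2998.8 and 3623.5 in lec1-1, against 8727.7 and 13126.1 in wild type (-1.68 ± 0.19, adjusted p = 2.75e-06). The arrays of the genotypes did not overlap for these 3 loci, which adds no support, since they were picked by adjusted p in this comparison. AT4G13050, listed with them, read 179.8 and 284.9 in lec1-1, against 801.1 and 1250.4 in wild type (-1.92 ± 0.26, adjusted p = 1.85e-05).

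In post-mature green seed 3 of 8 loci of the same list were lower in lec1-1 and 3 were higher, with a median of 0.19. Of all probe sets tested 20.5% were called lower at that stage and 44.1% in either direction. AT3G02630 and AT5G16240 stayed lower, at -0.99 ± 0.16 (adjusted p = 4.52e-05) and -1.46 ± 0.29 (adjusted p = 0.000428). AT1G24360 was higher in lec1-1, with 2497.5 and 2482.9 against 1163.7 and 1574.8 in wild type (0.86 ± 0.19, adjusted p = 0.00148). Without wild-type replicate 1, the calls of AT5G16230 (-0.83), AT3G57280 (0.44) and AT5G10160 (0.57) were lost. The same calls were lost without lec1-1 replicate 1, and that of AT5G10160 also without lec1-1 replicate 2 (0.58). The AT5G16230 call was further lost with an offset of 1 (-1.44, adjusted p = 0.235). The AT5G10160 call was further lost with quantile normalization (0.53, adjusted p = 0.0536) and with lot as a covariate (0.62, adjusted p = 0.0549). AT4G13050 did not pass (-0.22 ± 0.26, adjusted p = 0.538). In the step to post-mature green over mature green seed, 2 of the 8 loci fell in lec1-1, with a median of -0.42. In wild type 6 of 8 fell, with a median of -2.22. Of all probe sets tested 3.41% passed in that step in lec1-1 and 35.4% in wild type, in either direction. The change of the genotype difference over that step passed upward for 5 of the 8, as it did for FaTA. It passed for 15.9% of all probe sets, in either direction.

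The carbon supply list, which covers the route to the acetyl units used for chain building, had 2 of 14 genes measured, and both changed sign. Of all probe sets tested 28.7% and 44.1% were called at the 2 late stages in either direction. The change of the genotype difference between them passed for 15.9%. The share of all probe sets that changed sign was not counted. AT2G34590 read 1832.2 and 2283.7 in mature green lec1-1 seed, against 5591.4 and 6071.2 in wild type (-1.49 ± 0.17, adjusted p = 1.94e-06). In post-mature green seed it read 1895.2 and 2007.9 in lec1-1, against 1125.9 and 978.6 in wild type (0.86 ± 0.17, adjusted p = 0.00035). AT4G16155 showed -1.52 ± 0.20 and 1.73 ± 0.20 at those stages (adjusted p = 1.34e-05 and 1.39e-06). FaTA, in contrast to these loci, stayed lower in lec1-1 at both stages. The FaTA signal itself and that of these loci were not compared, since probe sets differ in their response.

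Downstream of the thioesterases, 2 of 19 genes of triacylglycerol assembly and fatty acid modification were measured. Both were lower in lec1-1 at both late stages, where 13% and 20.5% of all probe sets tested were called lower. AT3G44830 read 75 and 109 in mature green lec1-1 seed, against 836.2 and 655.3 in wild type (-2.49 ± 0.44, adjusted p = 0.00025), and 279.3 and 189.4 in post-mature green lec1-1 seed, against 1025.1 and 1901.7 (-2.37 ± 0.44, adjusted p = 0.000223). With an offset of 1 in place of 50, neither AT3G44830 difference passed (adjusted p = 0.0793 and 0.0984). GPDHC1, a glycerol-3-phosphate dehydrogenase gene, showed -0.84 ± 0.20 and -0.71 ± 0.20 (adjusted p = 0.00404 and 0.00782). The first was -0.59 without wild-type mature green replicate 2 (adjusted p = 0.0664) and the second -0.48 without lec1-1 post-mature green replicate 1 (adjusted p = 0.127).

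Of 16 genes listed for oil body proteins, 7 were measured. In mature green seed 6 of 7 were lower in lec1-1, with a median of -1.66. In post-mature green seed 6 were lower and 1 was higher, with a median of -1.44. At these 2 stages 13% and 20.5% of all probe sets tested were called lower, and 28.7% and 44.1% in either direction. AT3G05500 showed -2.16 ± 0.22 and -2.06 ± 0.22 at those stages (adjusted p = 5.99e-07 and 4.72e-07). AT3G18570 showed -1.66 ± 0.31 and -2.02 ± 0.31 (adjusted p = 0.000396 and 2.82e-05), and with an offset of 1 neither passed (adjusted p = 0.136 and 0.0507). AT3G01570 showed -1.88 ± 0.35 in mature green seed (adjusted p = 0.000431). The exception, AT1G67360, was higher in post-mature green lec1-1 seed, with 1392.5 and 1404.1 against 466.3 and 550.8 in wild type (1.38 ± 0.18, adjusted p = 3.99e-06). In mature green seed the AT1G67360 call (-0.54) was lost when wild-type replicate 2 (-0.30, adjusted p = 0.282) or lec1-1 replicate 1 (-0.45, adjusted p = 0.153) was left out, with lot as a covariate (-0.68, adjusted p = 0.0717) and without the intensity trend (adjusted p = 0.056). The mature green AT5G16460 call (-1.58, adjusted p = 0.00335) was lost when wild-type replicate 1 (-1.07, adjusted p = 0.0757) or lec1-1 replicate 2 (-1.07, adjusted p = 0.0731) was left out, with an offset of 1 (adjusted p = 0.161) and with lot as a covariate (adjusted p = 0.0541). At the post-mature green stage it was lost with an offset of 1 (adjusted p = 0.21). The OLEO3 call in post-mature green seed (-1.43, adjusted p = 0.0452) was lost in each fit with 1 of its 4 arrays left out (adjusted p 0.0928 to 0.147), with quantile normalization (-0.85, adjusted p = 0.214), an offset of 1 (0.164) and the floor of 100 (0.0659), and without the intensity trend (0.0851).

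**Figure D3:**
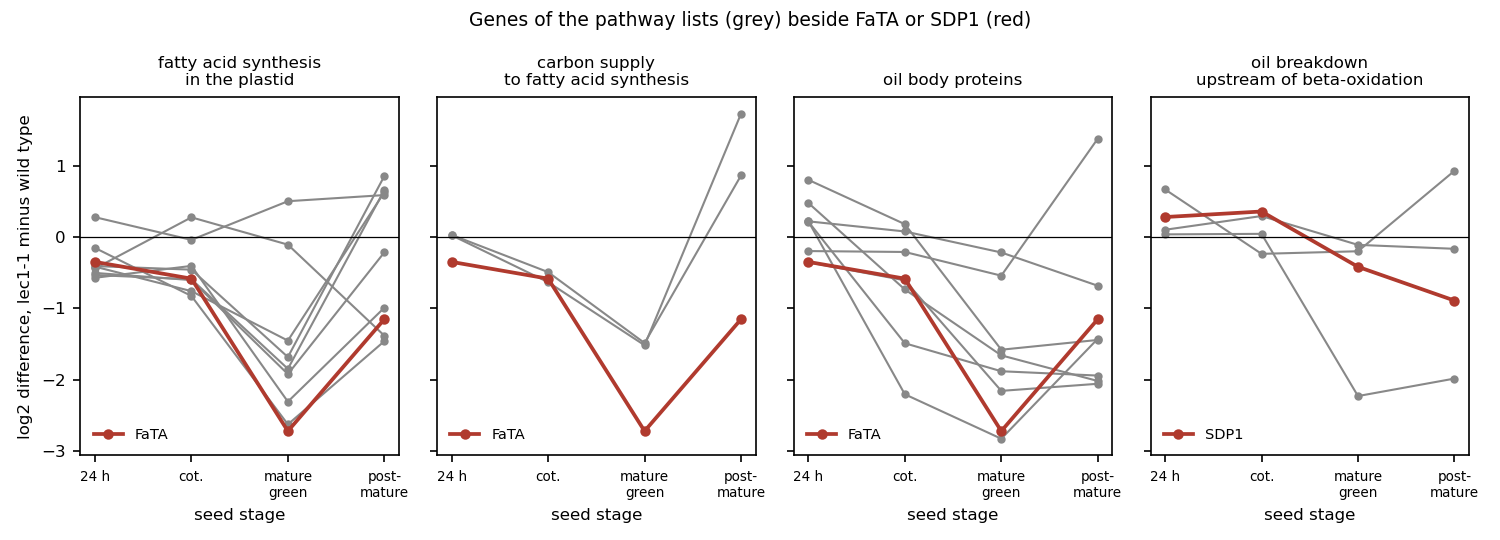
Log2 difference of lec1-1 minus wild type (y axis) at 4 seed stages (x axis) for each measured gene of 4 pathway lists (grey lines), with FaTA or SDP1 (red) drawn into each panel; each point is a limma estimate from 2 arrays a group. In mature green seed 6 of 8 fatty acid synthesis loci were lower in lec1-1, as FaTA was, where 13% of all probe sets tested were called lower. In post-mature green seed 3 were lower and 3 higher, where 44.1% of all were called in either direction. Some of these post-mature green calls were lost in other fits.

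On the breakdown side, 3 of 7 genes listed upstream of beta-oxidation beside SDP1 were measured. AT3G14360 read 877.8 and 994.2 in mature green lec1-1 seed, against 4889.0 and 4273.1 in wild type (-2.23 ± 0.22, adjusted p = 3.87e-07). At the post-mature green stage it read 1013.8 and 936.3 in lec1-1, against 4231.9 and 3794.0 in wild type (-1.99 ± 0.22, adjusted p = 7.27e-07). Like SDP1 it was high in late wild-type seed and low in seedlings, at 98.6 and 109.6. SDP1-LIKE, a relative of SDP1, had low signals of 216.2 and 168.5 in post-mature green lec1-1 seed, against 131.5 and 38.5 in wild type (0.93 ± 0.39, adjusted p = 0.06). AT4G24160 did not pass at either stage, with differences of -0.11 and -0.17, each ± 0.20.

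Of 15 genes of the glyoxylate cycle and gluconeogenesis, which turn the products of beta-oxidation into sugar, 2 were measured. ICL, isocitrate lyase, read 15139.4 and 11437.9 in mature green lec1-1 seed, against 17537.0 and 8246.2 in wild type (0.13 ± 0.32, adjusted p = 0.804, 95% confidence interval -0.53 to 0.79). In post-mature green seed it read 28696.2 and 16853.0 in lec1-1, against 22932.2 and 18904.7 in wild type (0.08 ± 0.32, adjusted p = 0.865). The genotypes overlapped at both stages, and at 24 hours and the cotyledon stage no ICL array of either genotype exceeded 59.9. PPDK, pyruvate orthophosphate dikinase, read 1006.8 and 835.1 in mature green lec1-1 seed, against 2936.9 and 1743.3 in wild type (-1.26 ± 0.45, adjusted p = 0.0403). That PPDK call was lost when wild-type replicate 1 (-0.89, adjusted p = 0.263), lec1-1 replicate 1 (-1.39, adjusted p = 0.0918) or lec1-1 replicate 2 (-1.13, adjusted p = 0.165) was left out. It was also lost with an offset of 1 (-1.30, adjusted p = 0.244) and without the intensity trend (-1.26, adjusted p = 0.0764). PPDK did not pass in post-mature green seed (-0.69 ± 0.45, adjusted p = 0.225). For the lists of other beta-oxidation genes (15), peroxisome biogenesis (19) and regulators of seed oil (14), 0 probe sets were named by the annotation, so these were not analysed here.

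**Figure D4:**
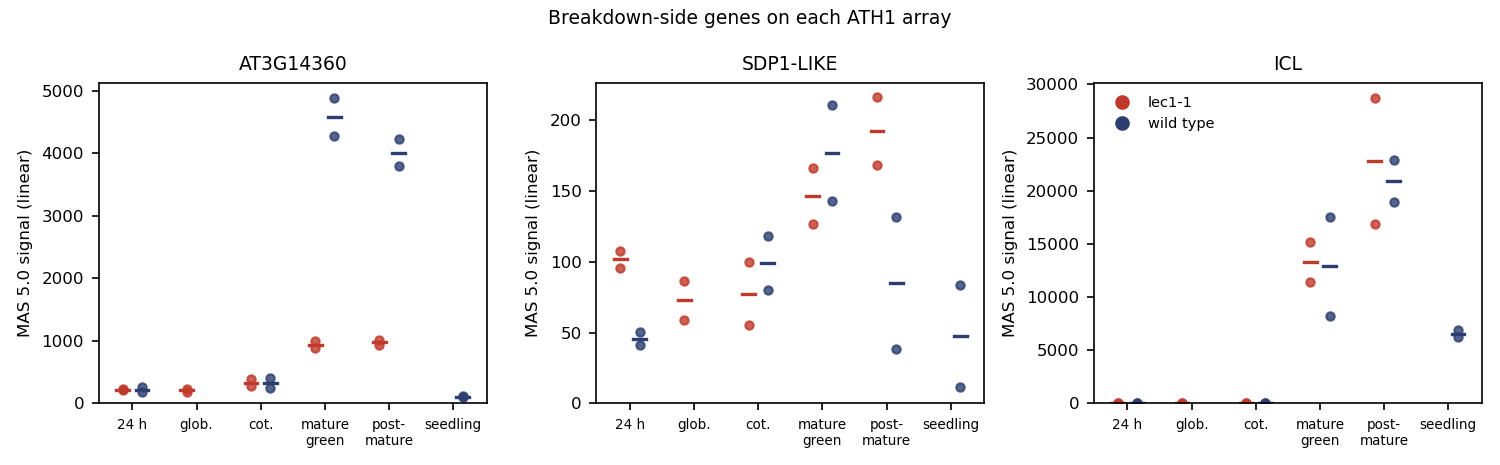
Signal of AT3G14360, SDP1-LIKE and ICL on the ATH1 arrays (linear Microarray Suite 5.0 signal, each y axis from 0) against stage; points are single arrays, bars the mean of 2 arrays, red lec1-1 and blue wild type. AT3G14360 averaged 936 in mature green lec1-1 seed, against 4581 in wild type, while the ICL arrays of the genotypes overlapped at both late stages.

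AtGenome1 gave a second probe set design for FaTA, with average differences of Microarray Suite 4.0 scaled to 2500 and 1 sample a group, so there is no replicate check and no test. In mid-maturation seed FaTA read 2854.7 and 3088.9 in lec1, against 7272.2 and 7714.3 in wild type, a ratio of 0.397. A probe set counted as lower by size when both arrays of a sample lay below both of the other, with means at least 2-fold apart after a floor of 250, and FaTA met this, as did 4.49% of all 8247 probe sets compared. In 24-hour seed it read 2339.1 and 2668.0 in lec1, against 4218.4 and 3735.9 in wild type, a ratio of 0.629. Late wild-type maturation seed kept 7088.0 and 6643.3. Of 9 pathway-list genes on AtGenome1, 1 was lower and 0 were higher by size in mid-maturation seed. This was AT4G13050, with 1539.5 and 1603.0 in lec1, against 3441.6 and 3472.1 in wild type. Ratios above 1 that did not count by size included GPDHC1 (1.96) and OLEO3 (1.17), both called lower in late lec1-1 seed on ATH1, and ICL (1.83) and AT1G67360 (1.59). In these 4 genes both lec1 arrays lay above both wild-type arrays. The labels do not match mid-maturation to any ATH1 stage, so chip and stage cannot be told apart here. Wild-type ICL on AtGenome1 read 580.2 and 613.7 at mid-maturation, against 17256.5 and 18631.8 at late maturation.

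FATB and AIM1 were neither higher nor lower by size between genotypes on AtGenome1, where 2.66% and 1.75% of all probe sets were higher and lower at 24 hours and 4.53% were higher at mid-maturation. FATB read 4407.1 and 3701.7 in mid-maturation lec1 seed, against 3970.6 and 3973.2 in wild type, a ratio of 1.02. In late maturation wild-type seed FATB read 7131.7 and 5728.8. One AIM1 probe set read 25145.7 and 29854.2 in mid-maturation lec1 seed, against 33873.2 and 31927.7 in wild type. The other AIM1 probe set read 4770.0 and 4200.9 in lec1, against 6372.0 and 6231.0 in wild type. Their ratios of 0.836 and 0.712 lay on the same side of 1, and the lec1 arrays were below the wild-type arrays in both. At 24 hours their ratios of 1.04 and 0.838 lay on opposite sides of 1. The FATB probe set and the second AIM1 probe set carry a suffix (_s) that marks sets shared with related transcripts. The first AIM1 probe set carries another suffix (_i).

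**Figure D5:**
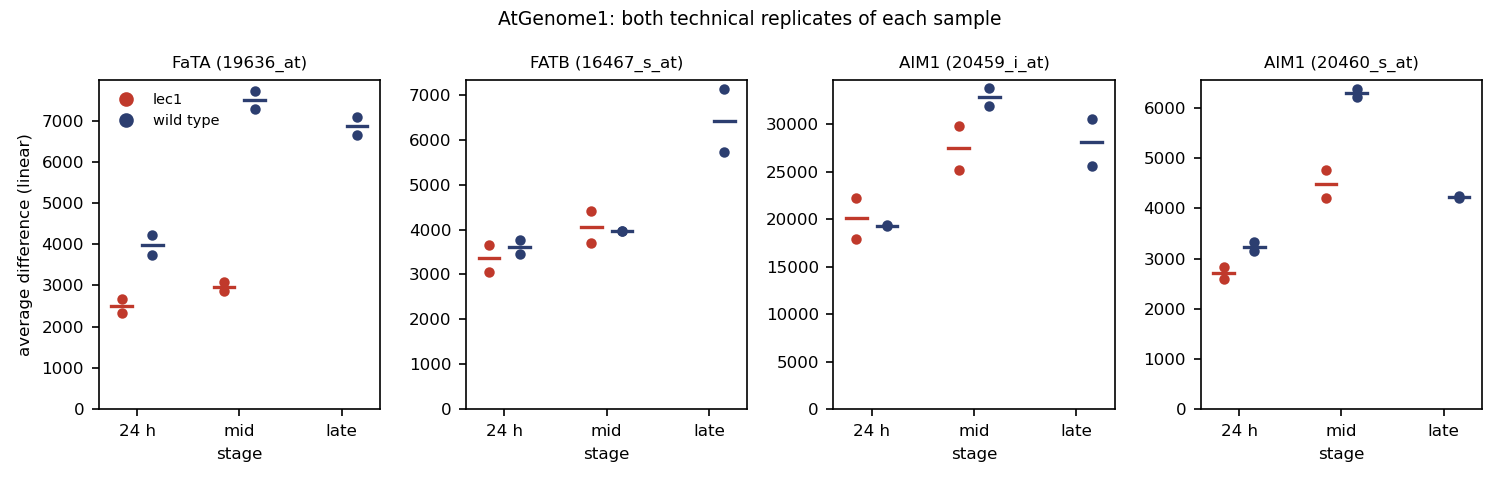
AtGenome1 average differences (linear, each y axis from 0) of the probe sets of FaTA, FATB and AIM1 at 24 hours, mid-maturation and late maturation; points are the 2 technical replicate arrays of 1 sample, bars their mean, red lec1 and blue wild type, with late maturation sampled only in wild type. FaTA reads 2854.7 and 3088.9 in mid-maturation lec1 seed, below the 7272.2 and 7714.3 of wild type.

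The 4 members followed different courses. Across the 10 ATH1 group means, which share arrays, scaling and several developmental stages, Pearson's r was 0.52 between FaTA and AIM1, 0.30 between FATB and AIM1 and 0.20 between FaTA and FATB. The 3 pairs with SDP1 gave -0.08, -0.22 and -0.06 for FaTA, FATB and AIM1. The likeness of other genes was described by r over the same 10 groups among 8923 probe sets of single genes with a span of at least 1 on the log2 scale (8924 for FATB). The 5 most like FaTA were AT1G03210 (r = 0.945), AT1G01225 (0.938), AT1G50890 (0.925), AT3G20200 (0.921) and AT2G22660 (0.917). For SDP1 they were AT1G68140 (0.963), AT1G76590 (0.96), AT3G26000 (0.957), EIN3 (0.952), a transcription factor of ethylene signalling, and AT3G03790 (0.952). For AIM1 they were AT3G20620 (0.947), AT5G66120 (0.943), AT1G69760 (0.922), AT2G36560 (0.92) and AT5G19700 (0.916). The likeness to FATB was lower, with AT5G57250 (0.891), the glycosyltransferase gene GT72B1 (0.872), AT1G64380 (0.867), AT1G79470 (0.836) and AT1G68400 (0.82). Over the 20 single arrays in place of group means, r of these 20 genes was 0.622 to 0.932. By that measure several of them, AT1G68140 and EIN3 included, were not among the 5 most like their member. Some had low signals, with a highest group mean of 122.6 for AT5G57250 and 162.3 for AT2G36560.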

How the data were processed

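Total RNA was labelled and hybridized to Affymetrix arrays. The deposited ATH1 values are intensity values made by the authors with Microarray Suite 5.0 and scaled to 500, per the labels; the labels of the globular arrays state neither. The deposited AtGenome1 values are intensity values from Microarray Suite 4.0 scaled to 2500, per the labels, which name the ATH1 chip for these arrays while their titles name AtGenome1. Names came from the platform annotation and TAIR10.1, used for names only.

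ATH1 was analysed with limma 3.58.1 in R 4.3.3 (lmFit, eBayes with intensity trend, 2-sided) on log2(signal + 50). The 64 control probe sets were left out, as were probe sets reaching 100 on fewer than 2 arrays, which left 18459 in 1 model of 20 arrays and 10 groups (10 residual degrees of freedom). Figures used Python 3.11.15 and matplotlib 3.10.9. Scripts were tested on simulated data. Replicate numbers were checked for pairing: deviations of same-numbered lec1-1 and wild-type arrays correlated at 0.13, -0.04, 0.03 and 0.01, so no block was used. No 2 arrays held identical values.

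The members and the pathway and marker lists (166 genes, 29 measured on ATH1) were chosen with earlier results of these data known. Named were all members, list counts, up to 3 genes of each pathway list by adjusted p at each late stage, AT4G13050 and SDP1-LIKE, listed by name in the rule, and the 5 most like genes. AT5G16230, AT3G57280, AT5G10160, AT5G16460, OLEO3 and DELTA-VPE were named after their values were seen, for lost or single calls.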

Additional observations from a re-analysis of the deposited data

Results flagged for a closer look

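The genotype difference, lec1-1 minus wild type, differed between consecutive stages in limma's test of that change for FaTA and for 9 named pathway genes. For FaTA the change was -2.1381 between cotyledon and mature green and 1.5693 between mature green and post-mature green (adjusted p = 0.000112 and 0.00203).

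From cotyledon to mature green, 8 pathway genes changed downward. Among fatty acid synthesis loci these were AT3G02630 (-1.9041), AT5G16240 (-1.8011), AT4G13050 (-1.3186) and AT1G24360 (-1.2261), and among carbon supply loci AT2G34590 (-0.9949) and AT4G16155 (-0.8848). The oil body locus AT3G05500 changed by -1.5505 and AT3G14360 of oil breakdown by -2.2752. From mature green to post-mature green, 6 changed upward: AT4G16155 (3.2482), AT1G24360 (2.5392), AT2G34590 (2.3507), AT1G67360 (1.9211), AT4G13050 (1.7078) and AT3G02630 (1.3179). In these 2 comparisons 18.5% and 15.9% of all probe sets tested passed. The named genes were picked by their late genotype differences, so their counts cannot be set against those shares. Lot statement and genotype cannot be told apart at the cotyledon and mature green stages.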

How the results depend on the processing

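Alternatives were offset 1, a floor of 100, no filter, 75th percentile and quantile scaling, no trend, groups-only fits, lot (covariate or within arrays), the replicate number, and each array left out; on AtGenome1 a floor of 100 left the members' ratios as they were. Of 620 values from alternatives other than leaving out each array in turn, 609 kept their direction and side of the threshold. Of the rest 7 lost and 2 gained a pass and 2 reversed. The 620 include the fits within arrays by lot statement, which also drop 1 array. Of 320 values with each array left out in turn 20 reversed. Calls were lost more often there than in the other alternatives, as given with each result above. No called value reversed. AIM1 at mature green lost its call with only its own groups (-0.5354, adjusted p = 0.154) and with lot (-0.4576, 0.165). Within arrays stating no lot, SDP1 (-0.7233, 0.0503) and AIM1 (-0.4383, 0.0651) lost theirs at post-mature green. The cause was not tested.

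With 1 array left out, the ranges at mature green were -0.7048 to -0.3661 (AIM1), -0.7599 to -0.0772 (SDP1) and -0.2396 to 0.0492 (FATB), and at post-mature green -1.06 to -0.7233 (SDP1) and -0.5543 to -0.4383 (AIM1). FATB at 24 hours ranged from -0.4681 to 0.0382. Uncalled changes of the genotype difference that crossed 0 were, from 24 hours to cotyledon, FATB -0.3124 to 0.194, FaTA -0.4841 to 0.014 and SDP1 -0.0845 to 0.2399, and from mature green to post-mature green, FATB -0.2404 to 0.0483 and AIM1 -0.1302 to 0.2085. Uncalled steps that did were FATB in wild type, cotyledon minus 24 hours (-0.0281 to 0.4783), and in lec1-1 FaTA, post-mature minus mature green (-0.1888 to 0.0125), and SDP1, cotyledon minus globular (-0.2296 to 0.0735). FaTA in mature green lec1-1 seed minus seedling ranged from -0.3927 to 0.0522. AIM1 in post-mature green lec1-1 seed minus seedling was 0.0214 with quantile normalization, and its genotype change after mature green -0.0134 with 75th percentile scaling. FaTA in wild type, mature green minus cotyledon, passed with that scaling (0.62, 0.0377) and without cotyledon replicate 2 (0.81, 0.0372) or mature green replicate 1 (0.80, 0.0297). AIM1 passed there with the floor (-0.38, 0.0396) and without mature green replicate 2 (-0.48, 0.0467).

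Of all probe sets 22 were called at 24 hours, against 39 with the floor, 14 without the trend, 7 within the stated lot and 5 to 12 with 1 array left out. At cotyledon 131 were called, against 238 with the floor, 326 with only its groups, 83 with lot and 45 to 69 with 1 array left out. At mature green 5297 were called, against 2648 with only its groups and 2974 with lot. Replicate numbers did not pair the arrays (3 of 45 group pairs correlated over 0.1). With the replicate block FaTA at mature green was -2.7224 (adjusted p = 5.53e-08).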
